A study of Mus musculus with 45 samples.

Results

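The liver of mice given a toxic oral dose of acetaminophen (APAP) was compared with that of mice given the dosing vehicle alone, 6 h after dosing, across all genes measured. The members are 10 of the 45 arrays of the series, 5 labelled APAP at 6 h and 5 labelled vehicle at 6 h, chosen by their titles alone. Every animal was a male C57Bl/6J mouse without a transgene, of an age that the sources used here do not give for this time course, fasted overnight before dosing and killed under isoflurane, and each array held the liver RNA of 1 mouse. The APAP group received 300 mg/kg by oral gavage in 1% hydroxyethylcellulose, and the vehicle group received 1% hydroxyethylcellulose by the same route. The study describes food being given back after the fast, and when, and how much each group ate, is not given in the sources used here. The arrays of 5 mice at 0 h, before any dosing, are used below as the fasted starting point, and those at 3 h and 9 h to place the 6 h values in time. A whole-liver array mixes hepatocytes with all other liver cells, and with 5 mice a group the number of animals limits the precision.

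APAP is cleared in hepatocytes mostly as glucuronide and sulfate conjugates. A smaller part is oxidised by cytochrome P450 enzymes, above all Cyp2e1 in the hepatocytes around the central vein, to a reactive quinone imine that consumes glutathione and then binds proteins, chiefly of mitochondria. The injured cells are known for activation of the stress kinase JNK and its nuclear partner AP-1. They are also known for activation of Nrf2, a transcription factor that electrophiles release, and of ATF4. ATF4 is the factor translated when the integrated stress response slows general protein synthesis. Levels are given throughout as log2 of the RMA signal, in which 1 unit is a doubling, and differences as APAP minus vehicle on that scale with the standard error (SE) of the fit. A gene was called when its limma p, adjusted by Benjamini-Hochberg over all 18180 genes, was under 0.05 and its change was at least 1.5-fold.

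The arrays were alike in scale, with medians between 7.60 and 7.64, and the hepatocyte list (15 secreted proteins, among them Alb, albumin, at 14.96 to 14.99 after APAP and 14.95 to 14.99 after vehicle) averaged 14.32 to 14.41 and 14.33 to 14.42. Pearson's r over all genes was 0.9846 to 0.9977 among the APAP arrays, 0.9934 to 0.9982 among the vehicle arrays and 0.9735 to 0.987 between the groups. Single arrays nevertheless stood apart. APAP replicate 5 was more than 1 log2 unit above every other APAP array in 45 genes and below all of them in 6, and those 45 were led by digestive enzymes made by the acinar cells of the pancreas. Of 24 measured genes on a list of exocrine pancreas genes drawn up after these values were seen, 23 were higher in APAP replicate 5 than in any of the other 44 arrays of the series, and 22 of them by more than 1 log2 unit. Their mean was 11.72 in that array and 6.21 to 6.54 in the others. Clps, the cofactor of pancreatic lipase, read 4.66, 4.76, 4.78, 4.71 and 12.73 in APAP replicates 1 to 5. Of the 8 pancreatic islet genes 0 were highest in that array, and limma called 0 of the 24 exocrine genes between the groups, with 0 at an unadjusted p under 0.05. APAP replicate 4 stood more than 1 unit above its group in 26 genes and below it in 6, and vehicle replicate 3 in 22 and 6, against at most 3 and 3 for any other of the 10 arrays. In vehicle replicate 3 Igfbp1, an insulin-suppressed secreted protein that is high in fasting, read 13.34 against 8.19 to 10.83 in the other vehicle arrays and 12.64 to 13.80 at 0 h. Other genes of that array did not lie at the untreated level, with G0s2, an inhibitor of fat breakdown, at 9.97 against 12.68 to 13.38 at 0 h and Lyve1 at 9.95 against 8.86 to 9.17. G0s2 differed by -1.16 between APAP and vehicle (adjusted p = 0.0626) and was called at -1.60 without vehicle replicate 3 (adjusted p = 0.000339). The part of these arrays in the results was not tested beyond leaving them out. Values without them are given where they change the 6 h call of a named gene, and for the counts of lists only in part. Over all genes 82 calls were lost without APAP replicate 5, 138 without APAP replicate 4 and 54 without vehicle replicate 3.

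**Figure D1:**
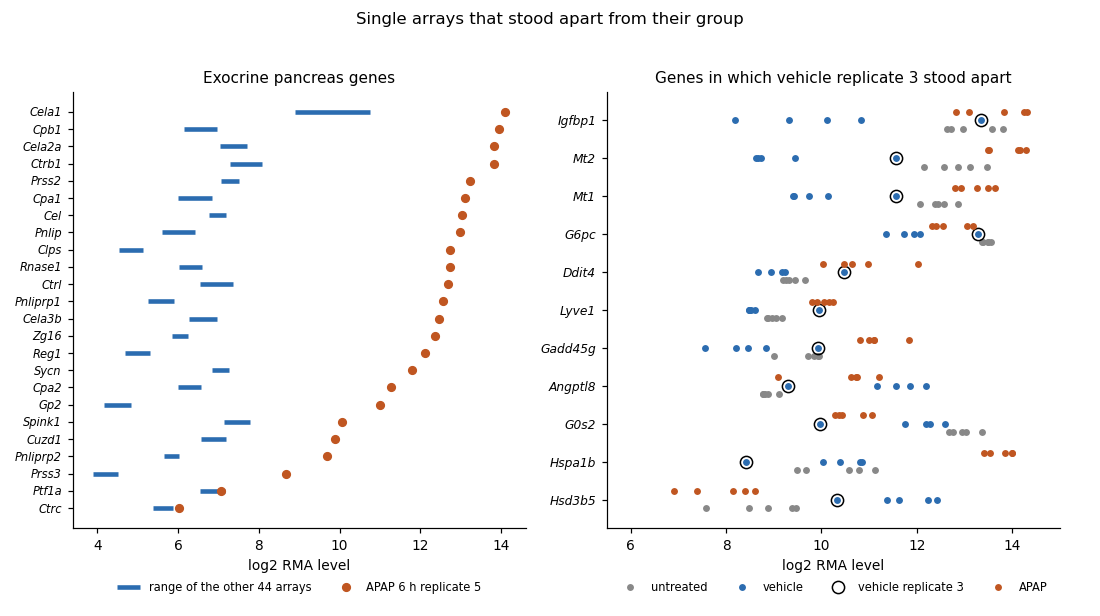
The left panel plots the log2 level of 24 exocrine pancreas genes in APAP replicate 5 (points) against the range of the other 44 arrays (bars), with 23 points right of their bar. The right panel plots 11 genes, chosen after their values were seen, in the untreated, vehicle and APAP arrays, with vehicle replicate 3 circled, for instance at 13.34 for Igfbp1.

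At 6 h 967 genes were called, 5.32% of 18180, of which 416 (2.29%) were higher and 551 (3.03%) lower after APAP. The increases were the larger changes, with 46 genes at least 4-fold higher and 13 at least 4-fold lower, and 22 against 1 at 8-fold. The 5 APAP arrays lay wholly above the 5 vehicle arrays in 1431 genes (7.87%) and wholly below them in 2477 (13.6%), so that more genes were wholly lower than wholly higher. A further 4018 genes had an adjusted p under 0.05 with a change under 1.5-fold, and the median difference of all genes was 0.0095. Over the called-higher genes the median difference from the vehicle mean was 0.962, 0.746, 0.814, 1.23 and 0.956 in APAP replicates 1 to 5, and over the called-lower genes -0.746, -0.696, -0.726, -0.947 and -0.851, so replicate 4 had the farthest median on both sides. Genes were then read in 51 lists of pathways and cell types. The lists with the highest shares called higher were AP-1 and early response factors (76.7%) and the ATF4 and CHOP stress response (62.5%), and those with the highest shares called lower were pericentral hepatocyte genes (61.3%), sterol synthesis (60.9%) and endoplasmic reticulum folding (55.6%).

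**Figure D2:**
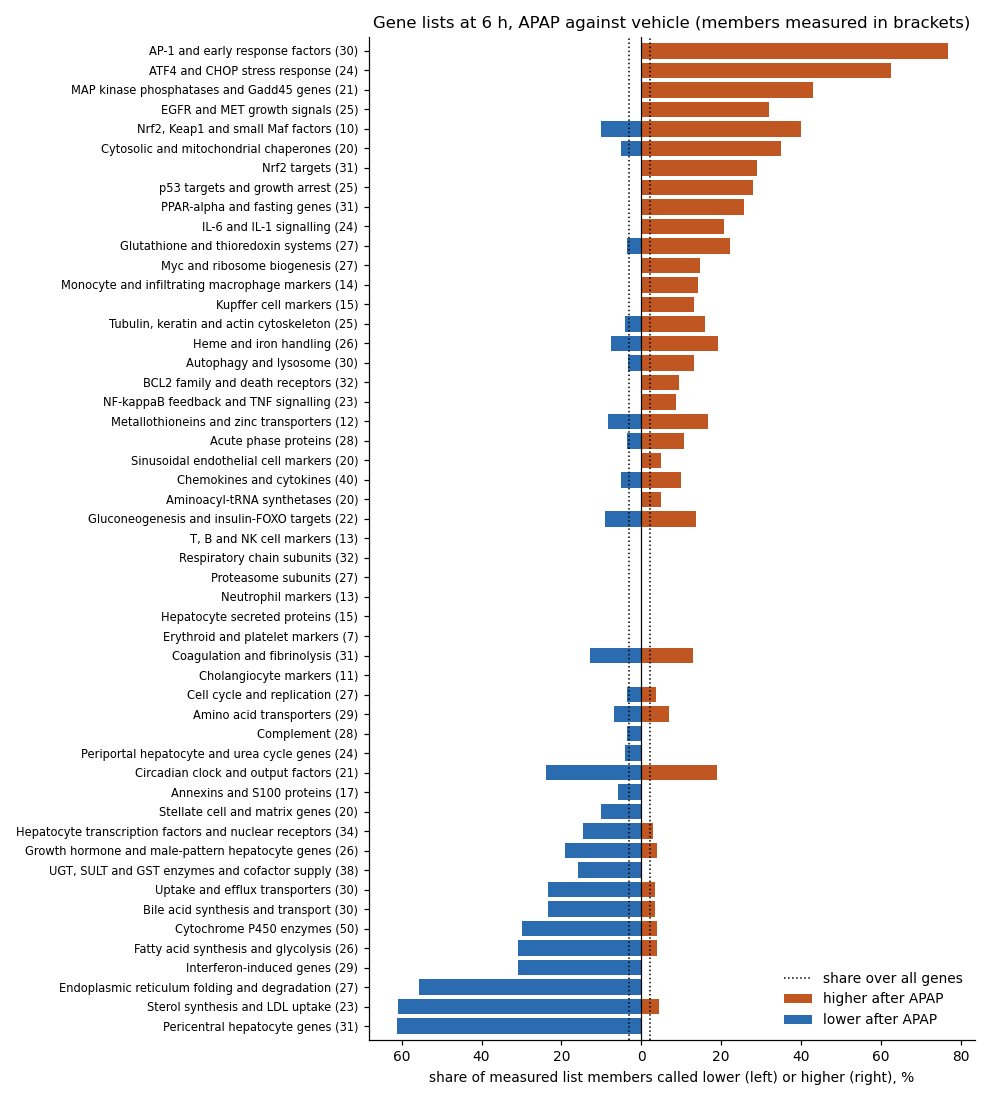
Bars give the percentage of each list's measured members called higher (right) or lower (left) after APAP at 6 h, with dotted lines at the shares over all genes, 2.29% and 3.03%. The lists at the top are nearly all to the right (23 of 30 AP-1 and early response factors) and those at the bottom to the left (19 of 31 pericentral genes).

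The immediate-early transcription factors, which stress kinases switch on without new protein synthesis, formed the most uniform group. Of 30 measured members 23 were called higher and 0 lower, with a median difference of 1.46, and in 22 the groups did not overlap. Atf3, a stress-induced repressor of the ATF/CREB family, read 14.02, 13.69, 13.92, 14.07 and 13.88 in APAP replicates 1 to 5 and 7.46, 7.43, 7.76, 7.62 and 7.86 in the vehicle arrays. The whole APAP group thus lay within 0.4 units and more than 5 units above the vehicle group, and the difference of 6.29 (SE 0.094, adjusted p = 1.66e-11) was 78.2-fold. Jun, the core subunit of AP-1, read 13.46, 13.29, 13.33, 13.23 and 13.11 after APAP and 9.63, 9.19, 8.60, 8.66 and 8.59 after vehicle, a difference of 4.35 (SE 0.19, adjusted p = 2.3e-07). Its partner Fos was more variable, at 13.29, 11.74, 12.02, 13.10 and 12.57 against 8.54, 7.35, 8.17, 7.21 and 7.20, with replicates 2 and 3 the lowest of the APAP arrays and replicates 1 and 3 the highest of the vehicle arrays. The difference of Fos was 4.85 (SE 0.35, adjusted p = 7.01e-06). Maff, a small Maf protein that pairs with AP-1 and Nrf2 factors, differed by 4.37 (SE 0.10, adjusted p = 1.45e-09) and Klf6, a zinc-finger factor of injured liver, by 4.004 (SE 0.14, adjusted p = 3.76e-08). Egr1 (3.36), the antiproliferative cofactor Btg2 (3.24) and Ccn1 (2.98), a matrix signalling protein, were also higher. Among the 7 members not called, Jund differed by 0.30 (adjusted p = 0.00454), under the fold limit although its groups did not overlap, and Klf2 by 0.26 (adjusted p = 0.3). Regulators of these kinases were called higher in part. Of 21 genes on a list of MAP kinase phosphatases, which switch the kinases off, Gadd45 proteins, which can activate kinases upstream of them, and stress kinases 9 were called higher and 0 lower (median 0.54), led by Gadd45a (3.33), Gadd45g (2.57), Gadd45b (2.13) and Dusp1 (1.98), a phosphatase of JNK and p38. Map3k5 (ASK1), an activator of JNK and p38, was also higher (1.11, SE 0.17, adjusted p = 0.000777). Dusp3 (0.41, adjusted p = 0.00209) and Sh3bp5, a mitochondrial anchor of JNK (-0.46, adjusted p = 0.00423), stayed under the fold limit with groups that did not overlap.

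**Figure D3:**
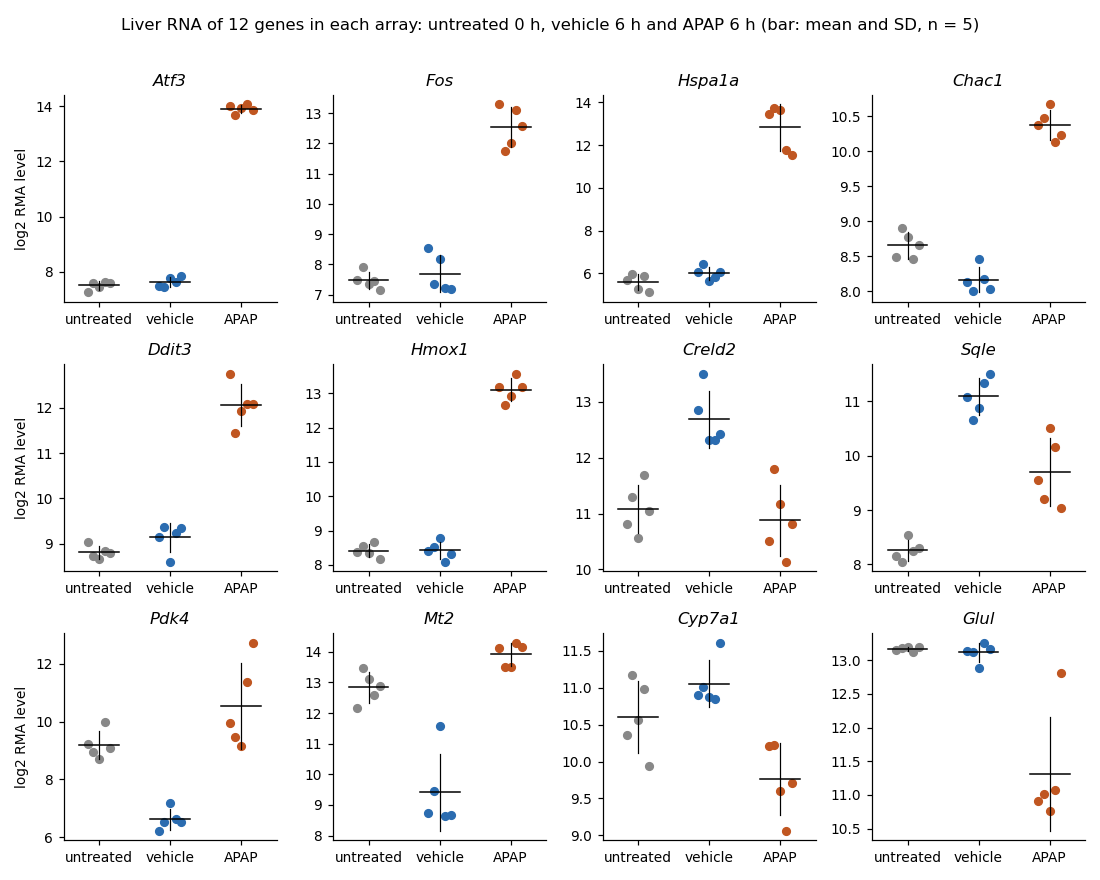
Each panel plots the log2 level of 1 gene in the 5 untreated, 5 vehicle and 5 APAP arrays, with a bar at the mean and a line for the SD (n = 5). Atf3, Fos, Hspa1a, Chac1, Ddit3 and Hmox1 were higher after APAP than in either other group, while Creld2 and Mt2 after APAP lay nearer to the untreated than to the vehicle arrays.

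Cytosolic chaperones of the heat shock response, which refold damaged proteins, were higher in part. Of 20 chaperones and cochaperones 7 were called higher and 1 lower, with a median of 0.20. Hspa1a, an inducible Hsp70, read 13.45, 13.74, 13.63, 11.76 and 11.54 after APAP and 6.05, 6.44, 5.63, 5.84 and 6.05 after vehicle. Replicates 4 and 5 were lower than the other APAP arrays by more than 1.5 units, yet all 5 were more than 5 units above every vehicle array, and the difference was 6.82 (SE 0.43, adjusted p = 3.53e-06). Its near-identical neighbour Hspa1b differed by 3.66 (SE 0.39, adjusted p = 8.14e-05), and since the probes of 2 such copies can bind each other's RNA the split between them is uncertain. Dnajb1, the Hsp40 that delivers clients to Hsp70, differed by 3.34 (SE 0.26, adjusted p = 1.17e-05) and Bag3, which links Hsp70 to autophagy, by 2.39 (SE 0.28, adjusted p = 0.000148). Bag3 read 13.15, 13.51, 13.36, 12.28 and 11.97 against at most 10.71 after vehicle, again with replicates 4 and 5 lowest. Hsph1, the Hsp110 nucleotide exchange factor, read 13.53, 13.65, 13.59, 12.62 and 11.99 against 11.77, 12.01, 10.999, 11.49 and 11.63. Its APAP replicate 5 fell inside the vehicle range, so the groups overlapped, with a difference of 1.497 (SE 0.32, adjusted p = 0.0048). The small heat shock protein Hspb8 (1.28) was uniform, at 12.85 to 13.14 and 11.58 to 11.79. The exception was Fkbp4, a cochaperone of steroid receptors with Hsp90, which was lower (-0.93, SE 0.20, adjusted p = 0.00538). The constitutive members Dnaja1 (0.29, adjusted p = 0.0994) and Hsp90ab1 (0.37, adjusted p = 0.045) were not called. The list as a whole averaged 11.08, 11.31, 11.24, 10.70 and 10.50 in APAP replicates 1 to 5 and 9.69 to 10.25 after vehicle, so the groups did not overlap.

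ATF4 and its partner CHOP drive genes for amino acid supply, redox balance and, when stress lasts, cell death. Of 24 such genes 15 were called higher and 0 lower, with a median of 0.89. Ddit3, which encodes CHOP, read 12.76, 11.45, 11.93, 12.08 and 12.09 against 9.14, 9.36, 8.60, 9.23 and 9.35, with no overlap and a difference of 2.93 (SE 0.22, adjusted p = 8.67e-06). Chac1, an enzyme that degrades glutathione, read 10.38, 10.48, 10.67, 10.13 and 10.23 against 8.14, 8.004, 8.46, 8.17 and 8.03, 2 tight groups that differed by 2.22 (SE 0.11, adjusted p = 6.93e-07). Psat1, of serine synthesis, read 9.36, 8.41, 9.13, 9.62 and 8.24 against 5.38, 5.83, 5.34, 5.35 and 5.33 and differed by 3.51 (SE 0.24, adjusted p = 6.09e-06), while Phgdh, the enzyme before it in the same pathway, did not pass (-0.14, SE 0.068, adjusted p = 0.168). Ppp1r15a (GADD34), which restores translation, differed by 2.38 (SE 0.11, adjusted p = 4.15e-07). The hormones of the stressed liver Gdf15 (2.98, SE 0.32, adjusted p = 7.81e-05) and Fgf21 (2.73, SE 0.24, adjusted p = 2.7e-05) were higher as well. Asns, asparagine synthetase, read 10.16, 8.40, 8.58, 8.22 and 8.84 in the APAP arrays and 6.52 to 7.84 after vehicle, so replicate 1 stood 1.3 units above the next, and the difference was 1.67 (SE 0.37, adjusted p = 0.00637). Cth (-0.18), Atf5 (0.11) and Cebpg (0.12) were not called, with adjusted p of 0.139, 0.498 and 0.194. Of 20 aminoacyl-tRNA synthetases, many of them ATF4 targets in other settings, Sars alone was called (0.68, SE 0.081, adjusted p = 0.000153). That is 5%, against 2.29% of all genes called higher. The count was 2 without APAP replicate 5, vehicle replicate 2 or vehicle replicate 3. A further 11 had an adjusted p under 0.05 with a change under 1.5-fold. In 7 of the 20 the APAP arrays lay wholly above the vehicle arrays and in 2 wholly below. The list median was 0.08, and Aars gave 0.025 (adjusted p = 0.854).

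The folding and degradation machinery of the endoplasmic reticulum, the other output of the unfolded protein response, went the opposite way. Of 27 measured members 15 were called lower and 0 higher, with a median of -0.61. Creld2, a secreted protein induced by stress of this compartment, read 10.51, 11.79, 11.16, 10.14 and 10.80 after APAP and 12.86, 13.50, 12.31, 12.31 and 12.42 after vehicle. The groups did not overlap, although vehicle replicate 2 was the highest and APAP replicate 2 the nearest to it, and the difference was -1.80 (SE 0.31, adjusted p = 0.00142). Sdf2l1, a cofactor of the chaperone BiP, differed by -1.90 (SE 0.33, adjusted p = 0.00145), and Manf, a secreted stress protein, by -1.21 (SE 0.22, adjusted p = 0.00192). The disulfide isomerases Pdia4 (-0.97) and Pdia6 (-0.96), the oxidase Ero1b (-0.92) and the cochaperone Dnajb11 (-0.86) were lower as well. Pdia6 read 11.85, 12.08, 11.83, 11.49 and 11.69 against 12.78, 13.11, 12.62, 12.60 and 12.61. Other members were not called. Hspa5, which encodes BiP, read 13.53, 13.56, 13.46, 13.45 and 13.42 against 13.65, 13.81, 13.54, 13.45 and 13.55, with overlapping groups and a difference of -0.12 (SE 0.064, adjusted p = 0.209), and Xbp1, a transcription factor of this response, gave 0.11 (SE 0.086, adjusted p = 0.386). The vehicle arrays that this comparison uses had themselves moved since 0 h. In the comparison of vehicle at 6 h with untreated mice, which shares those arrays, 526 genes were called (2.89%), 310 higher (1.71%) and 216 lower (1.19%), and 12 of the 27 were higher and 0 lower. Creld2 read 10.82, 11.30, 10.57, 11.68 and 11.05 at 0 h, so its vehicle minus untreated difference was 1.60 (SE 0.25, adjusted p = 0.000626). Set directly against the untreated arrays, APAP at 6 h gave 774 calls (4.26%), 453 higher (2.49%) and 321 lower (1.77%), and of the 27 genes 1 was higher and 0 lower.

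The promoters of these 2 lists were searched because their members went in opposite directions. Windows from 250 bases before to 50 after the RefSeq start (GRCm38.p6) were at hand for 14260 of the 18180 genes, and motifs were searched on both strands. The endoplasmic reticulum stress response element, written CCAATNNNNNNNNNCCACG, was in 20 of those windows (0.140%) and in 10 of the 23 list promoters with a window, 6 of genes called lower and 4 of genes not called (Calr, Canx, Hspa5 and Syvn1). A second form, ATTGGNCCACG, was in 10 windows (0.0701%), among them those of Dnajb11, called lower, and Herpud1, not called. The C/EBP-ATF response element, TGATGNAA, was in 453 windows (3.18%) and in 6 of 21 list promoters, 4 of genes called higher (Asns, Chac1, Fgf21 and Trib3). Printed below 5′ to 3′ on the gene's strand are the 250 bases before the start, with matches in capitals, of Creld2 and Pdia6 (lower), Hspa5 (not called) and Chac1 (higher), and of Atf3, which is on the early response list and not on these 2, for its large increase. A match describes letters only.
Creld2, chr15:88819396-88819645, plus strand: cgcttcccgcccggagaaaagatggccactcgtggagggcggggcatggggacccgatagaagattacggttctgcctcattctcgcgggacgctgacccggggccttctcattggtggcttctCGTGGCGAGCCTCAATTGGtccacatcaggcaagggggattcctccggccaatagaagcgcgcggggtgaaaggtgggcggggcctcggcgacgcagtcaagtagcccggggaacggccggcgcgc
Pdia6, chr12:17266339-17266588, plus strand: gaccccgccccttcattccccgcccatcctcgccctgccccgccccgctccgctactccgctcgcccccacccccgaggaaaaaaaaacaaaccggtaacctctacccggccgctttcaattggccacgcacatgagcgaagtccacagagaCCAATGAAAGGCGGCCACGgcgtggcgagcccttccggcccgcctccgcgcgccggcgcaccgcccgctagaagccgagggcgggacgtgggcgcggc
Hspa5, chr2:34771840-34772089, plus strand: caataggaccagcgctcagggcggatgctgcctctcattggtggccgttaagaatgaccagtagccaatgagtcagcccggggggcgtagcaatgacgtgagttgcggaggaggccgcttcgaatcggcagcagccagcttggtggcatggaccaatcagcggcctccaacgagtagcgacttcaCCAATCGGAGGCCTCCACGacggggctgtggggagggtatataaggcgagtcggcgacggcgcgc
Chac1, chr2:119350992-119351241, plus strand: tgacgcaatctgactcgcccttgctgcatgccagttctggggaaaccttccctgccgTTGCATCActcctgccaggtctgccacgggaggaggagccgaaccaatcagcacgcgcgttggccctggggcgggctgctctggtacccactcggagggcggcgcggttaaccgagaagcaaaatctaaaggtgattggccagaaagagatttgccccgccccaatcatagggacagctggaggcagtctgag
Atf3, chr1:191183334-191183583, minus strand: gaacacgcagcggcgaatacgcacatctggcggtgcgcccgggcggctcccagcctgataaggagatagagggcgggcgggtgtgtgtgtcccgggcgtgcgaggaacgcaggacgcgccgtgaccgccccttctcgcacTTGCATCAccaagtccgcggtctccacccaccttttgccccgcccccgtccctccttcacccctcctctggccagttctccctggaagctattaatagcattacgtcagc

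Nrf2, released from Keap1 by electrophiles, drives genes that make glutathione and quench reactive molecules. Of 31 of its targets 9 were called higher and 0 lower (median 0.25), so the group changed in part. Hmox1, heme oxygenase, which AP-1 and heme also induce, read 13.19, 12.67, 12.92, 13.58 and 13.20 against 8.41, 8.52, 8.79, 8.09 and 8.30 and differed by 4.69 (SE 0.17, adjusted p = 3.76e-08). Gclc, the rate-limiting enzyme of glutathione synthesis, read 13.97, 13.88, 13.88, 14.13 and 13.39 against 12.63, 12.82, 12.49, 12.63 and 12.52, without overlap, a difference of 1.23 (SE 0.12, adjusted p = 4.46e-05). Srxn1 (2.68), which repairs oxidised peroxiredoxins, Osgin1 (1.84), Pgd (1.35), of the pentose phosphate pathway, Txnrd1 (1.26) and Sqstm1 (1.08), an autophagy receptor, were higher. The other 22 targets were not called, and those given here were picked from the uncalled ones with the highest signals. Gstm1, a glutathione transferase, differed by -0.014 (adjusted p = 0.893), Prdx1 by 0.018 (adjusted p = 0.767) and Txn1 by -0.093 (adjusted p = 0.262). The scale of such arrays is compressed at its top, and the part of this in these values was not tested. Nfe2l2, which encodes Nrf2, was higher by 0.65 (SE 0.13, adjusted p = 0.00297), though by 0.54 and under the fold limit without APAP replicate 4, and Bach1, a repressor at the same sites, by 1.501 (SE 0.20, adjusted p = 0.000333), while Keap1 gave -0.033 (SE 0.12, adjusted p = 0.868). The core letters of the antioxidant response element, TGACNNNGC, were in 2303 windows (16.2%) and in 10 of 26 target promoters, of which 3 belonged to genes called higher. In the wider glutathione and thioredoxin list (6 higher and 1 lower of 27), Chac2, the milder relative of Chac1 in glutathione breakdown, was lower, at 9.36, 9.34, 9.41, 8.27 and 9.05 against 10.70, 10.67, 10.60, 10.75 and 10.66, with a difference of -1.59 (SE 0.19, adjusted p = 0.000131). Gpx1 (-0.10), Cat (-0.059) and Sod1 (0.022) were not called.

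The metallothioneins, small zinc-binding proteins induced by metals, glucocorticoids and fasting, gave large differences, and the vehicle group also lay far from the untreated one. Mt2 read 14.12, 13.52, 13.50, 14.29 and 14.17 after APAP, 8.74, 9.45, 11.56, 8.62 and 8.66 after vehicle and 12.16, 13.47, 13.13, 12.58 and 12.87 at 0 h. The APAP and vehicle groups did not overlap, vehicle replicate 3 lay at least 2 units above the rest of its group, and the untreated arrays lay near those after APAP. The APAP minus vehicle difference was 4.51 (SE 0.50, adjusted p = 9.5e-05) and the vehicle minus untreated difference -3.43 (SE 0.49, adjusted p = 0.000387). Mt1, a close copy of Mt2 on the same chromosome, gave 3.17 and -2.41, and the zinc importer Slc39a10 -1.06 and 1.46. In heme and iron handling (5 higher and 2 lower of 26), the BMP-responsive inhibitors Id1 (1.89, SE 0.21, adjusted p = 9.64e-05) and Id3 (1.82, SE 0.13, adjusted p = 5.5e-06) and Smad7 (0.85, SE 0.17, adjusted p = 0.00388) were higher. Hamp, the iron hormone hepcidin and another BMP target, gave 0.30 (adjusted p = 0.193). The count of decreases in that list was 1 when any 1 of vehicle replicates 1, 2, 4 and 5 was left out, and 4 without vehicle replicate 3.

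Among genes of growth arrest, cell death and growth signals the calls were nearly all increases. Of 25 p53 targets and growth arrest genes 7 were called higher and 0 lower. Cdkn1a, the cell cycle inhibitor p21, read 11.11, 10.66, 10.35, 11.99 and 11.60 against 8.08, 7.94, 8.85, 8.42 and 7.64 and differed by 2.96 (SE 0.31, adjusted p = 6.92e-05), but it read 10.20 to 10.89 at 0 h, within or close to the APAP range. Plk3 (3.04), Trp53inp1 (1.93), Mdm2 (1.16) and Sesn2 (0.79) were higher, while the p53 targets Bax (-0.022, adjusted p = 0.834) and Ccng1 (-0.51, adjusted p = 0.000156, under the fold limit) were not called. In the BCL2 and death receptor list 3 of 32 were higher, Tnfrsf12a (3.005, SE 0.18, adjusted p = 2.58e-06), the receptor of TWEAK, and the death genes Bbc3 (0.85) and Bcl2l11 (0.84). That count was 5 without APAP replicate 5 or without vehicle replicate 3. Tnfrsf12a read 11.90, 12.06, 12.23, 13.04 and 12.39 against 9.13, 9.25, 9.56, 9.35 and 9.30, with no overlap. Myc read 10.91, 10.48, 10.45, 11.08 and 11.06 against 8.25, 8.12, 8.28, 8.28 and 7.95, a difference of 2.62 (SE 0.13, adjusted p = 8.54e-07), and with it the nucleolar genes Gnl3 (1.05) and Nop58 (0.91) were higher, 4 of 27 in that list. Of 25 genes of EGFR and MET signalling 8 were higher, among them the EGFR ligands Areg (1.46, SE 0.20, adjusted p = 0.000376), Btc (0.99, SE 0.12, adjusted p = 0.000215) and Ereg (0.98, SE 0.25, adjusted p = 0.0135). The signals of Areg and Ereg were low, and both calls were lost when the dimmest 25% of genes were left out. Of 27 genes of the cell cycle 1 was higher and 1 lower, 3.7% each, against 2.29% and 3.03% of all genes. The increase was lost when any 1 of APAP replicates 1 and 4 and vehicle replicates 1 to 4 was left out. Ccnd1, the cyclin of hepatocyte cell cycle entry, read 8.56 to 9.81 and 8.62 to 9.89. The coagulation list (4 higher, 4 lower of 31) split by kind. Thbd, thrombomodulin (1.97), Thbs1 (1.59) and Plaur (0.71) were among those higher, and the plasma factors F11 (-0.81), Klkb1 (-0.65) and Serpind1 (-0.64, and -0.56 without APAP replicate 5, under the fold limit), with Tfpi2 (-0.68), were lower.

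Some chemokine genes were called, and some varied widely between mice. Of 40 chemokines and cytokines 4 were called higher (10%) and 2 lower (5%), against 2.29% and 3.03% of all genes. Cxcl2, a neutrophil attractant, read 7.54, 7.58, 8.44, 9.61 and 5.61 after APAP and 5.40, 5.44, 5.48, 5.32 and 5.06 after vehicle. Replicate 5 lay just above the vehicle range and replicate 4 at the top, 4 units apart, and the difference was 2.42 (SE 0.56, adjusted p = 0.00805). Its relative Cxcl1 read 11.82, 10.82, 11.57, 12.33 and 10.02 against 8.85, 8.84, 9.97, 8.88 and 8.71, a difference of 2.26 (SE 0.40, adjusted p = 0.00159). Cxcl10, an attractant of T cells, differed by 2.54 (SE 0.45, adjusted p = 0.00168), while Cxcl12 was lower (-0.97, SE 0.14, adjusted p = 0.000518). Of 24 genes of IL-6 and IL-1 signalling 5 were higher (20.8%) and 0 lower, among them the feedback inhibitor Socs3 (1.98, SE 0.17, adjusted p = 2.58e-05) and the receptors Il1r1 (1.53, SE 0.27, adjusted p = 0.00158) and Osmr (0.84, SE 0.22, adjusted p = 0.0152). Of 28 acute phase genes 3 were higher, among them Lcn2 (2.18, SE 0.33, adjusted p = 0.000619) and Cd14 (1.51, SE 0.30, adjusted p = 0.0035), and 1 was lower, Saa4 (-1.06, SE 0.16, adjusted p = 0.000626). Of 23 genes of NF-kappaB feedback and TNF signalling 2 were higher, Nfkbiz (1.96, SE 0.22, adjusted p = 0.000108) and Rel (1.09, SE 0.15, adjusted p = 0.000403), a count of 4 without APAP replicate 5 or without vehicle replicate 2. The major plasma acute phase proteins Hp (-0.019), Hpx (-0.01) and Fgb (0.14) were not called, and their signals lay near the top of the scale. Of 29 interferon-induced genes 9 were lower and 0 higher, with a median of -0.27. Igtp (-1.10), Ifi47 (-1.07), Ifit1 (-0.98) and Usp18 (-0.81) were lower, while the list mean of APAP replicate 4, 9.41, lay within the vehicle range of 9.29 to 9.42 and the other 4 APAP arrays at 8.74 to 9.08. The count was 7 without APAP replicate 5. In vehicle against untreated arrays 6 of the 29 were higher and 0 lower (median 0.26). Set directly against the untreated arrays, APAP at 6 h gave 0 calls among the 29 in either direction (median -0.086).

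Some genes that mark the non-hepatocyte cells of the liver were called, and in whole liver more cells of a type and more RNA per cell cannot be told apart. The shares called higher were 14.3% of monocyte and macrophage, 13.3% of Kupffer and 5% of endothelial markers, against 2.29% of all genes. Of the stellate and matrix genes 10% were lower, against 3.03% of all genes, while the median of that list was 0.057. Of 13 neutrophil markers limma called 0, with 6 at an unadjusted p under 0.05 (2 called without APAP replicate 5 or without vehicle replicate 3). Of all 18180 genes 6832 had an unadjusted limma p under 0.05. The neutrophil list means were 7.46 to 7.84 after APAP and 7.34 to 7.59 after vehicle. Of 14 markers of monocytes and infiltrating macrophages 2 were called higher, Cd68 (0.59, SE 0.10, adjusted p = 0.00146) and Mmp12 (0.67, SE 0.18, adjusted p = 0.0156), with list means of 7.83 to 8.21 and 7.68 to 7.90. Cd68 fell under the fold limit without APAP replicate 4 or 5 or vehicle replicate 4 or 5, down to 0.52, and Mmp12 without APAP replicate 2 or 3, down to 0.55. Of 15 Kupffer cell markers Hmox1, which is also on the Nrf2 list, and Cd163 (0.80, SE 0.21, adjusted p = 0.0137) were higher. Csf1r, which defines the lineage, gave 0.16 (SE 0.17, adjusted p = 0.52). Of the 15, 2 had an unadjusted limma p under 0.05. The Kupffer list means were 9.90, 9.85, 10.06, 10.53 and 10.79 in APAP replicates 1 to 5 and 9.44 to 9.91 after vehicle. Of 20 sinusoidal endothelial markers Lyve1 passed (1.23, SE 0.26, adjusted p = 0.00428), with 2 calls without vehicle replicate 3. Of 20 stellate and matrix genes Col3a1 (-0.74, SE 0.20, adjusted p = 0.0191) and Lrat (-0.67, SE 0.18, adjusted p = 0.0182) were lower. Col3a1 was under the fold limit without vehicle replicate 3 (-0.57) and Lrat without APAP replicate 5 (-0.51). Without both arrays 0 of the 20 were called. The stellate list means overlapped, at 7.90 to 8.05 after APAP and 7.84 to 8.21 after vehicle. Of the cholangiocyte (11), lymphocyte (13) and erythroid and platelet (7) markers limma called 0, while 2 of each list had an unadjusted p under 0.05, and 1 erythroid and platelet gene was called without APAP replicate 2, APAP replicate 3 or vehicle replicate 3.

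Hepatocytes around the central vein, where APAP is activated, are marked by glutamine synthetase and a set of P450 enzymes. Of 31 pericentral genes 19 were called lower (61.3%) and 0 higher, with a median of -0.73. Of 24 periportal and urea cycle genes 1 was lower (4.17%, against 3.03% of all genes) and the median was 0.0029. In the periportal list 2 were higher without vehicle replicate 3 and 1 higher without APAP replicate 2 or vehicle replicate 2. The vehicle arrays were close to the untreated ones in the pericentral list (median -0.0027), and 19 of 31 were also lower than in untreated arrays. Glul, glutamine synthetase, read 10.91, 11.02, 10.76, 11.07 and 12.81 after APAP and 13.14, 13.13, 12.88, 13.26 and 13.17 after vehicle. APAP replicate 5 lay just under the vehicle range and the other 4 at least 1.8 units under it, and the difference was -1.80 (SE 0.33, adjusted p = 0.00195). The same array was the highest of its group in Slc1a2 (7.73, 8.18, 8.05, 7.60 and 9.62), a glutamate transporter (-1.85, SE 0.32, adjusted p = 0.0014), and Slc13a3 (5.97, 5.97, 5.67, 5.47 and 7.29), a dicarboxylate transporter (-2.16, SE 0.28, adjusted p = 0.000268). The ammonium transporter Rhbg (-1.64, SE 0.24, adjusted p = 0.000551) and Lect2 (-1.69, SE 0.11, adjusted p = 3.64e-06) were lower. Cyp2e1, which activates APAP, lay at 14.45, 14.45, 14.44, 14.35 and 14.46 against 14.50, 14.52, 14.47, 14.50 and 14.53, all 5 below all 5, but the difference was -0.075 (SE 0.036, adjusted p = 0.157) and its signal is near the top of the scale. The periportal genes Cps1 (0.019) and Cyp2f2 (-0.048) were not called, and Arg1 differed by 0.19 (adjusted p = 0.00341), under the fold limit.

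Of 50 cytochrome P450 genes 15 were lower and 2 higher (median -0.16). Cyp26a1, which degrades retinoic acid (-1.64, SE 0.15, adjusted p = 2.69e-05), Cyp4f14 (-1.52, SE 0.13, adjusted p = 2.44e-05), Cyp2c29 (-1.08, SE 0.058, adjusted p = 1.1e-06) and Cyp2c37 (-1.12, SE 0.24, adjusted p = 0.00546) were lower, and the many Cyp2c copies share sequence, so single members are uncertain. Cyp2b10, the classic target of the receptor CAR, was higher (1.20, SE 0.27, adjusted p = 0.00729), although it read 9.53 to 11.63 at 0 h against 9.38 to 10.88 after APAP. Among the enzymes and cofactor suppliers of conjugation 6 of 38 were lower and 0 higher, including Papss1 (-0.98, SE 0.094, adjusted p = 3.94e-05), which makes the sulfate donor. Bile acid genes were lower in 7 of 30 with 1 higher, an increase lost when any 1 of APAP replicate 5 and vehicle replicates 1, 2 and 5 was left out. Cyp7a1, the rate-limiting enzyme of bile acid synthesis, read 10.21, 10.22, 9.60, 9.06 and 9.71 against 10.91, 11.01, 10.88, 10.85 and 11.61, with no overlap and a difference of -1.29 (SE 0.22, adjusted p = 0.0014). Cyp2c70, which makes muricholic acids in mice (-1.34, SE 0.10, adjusted p = 9.66e-06), Akr1d1 (-1.20, SE 0.13, adjusted p = 9.43e-05) and the export pump Abcb11 (-0.76, SE 0.11, adjusted p = 0.000589) were lower, and the uptake carrier Slc10a1 gave -0.20 (SE 0.047, adjusted p = 0.00889). The nuclear receptor Ahr was lower (-0.82, SE 0.13, adjusted p = 0.000868), Nr1i3 (CAR) gave -0.12 (SE 0.13, adjusted p = 0.563), and Hnf4a, the main hepatocyte factor, gave 0.14 (SE 0.046, adjusted p = 0.0378).

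Genes of lipid metabolism differed between the control groups as well as between APAP and vehicle. Insulin and SREBP raise sterol and fatty acid synthesis after a meal, and PPAR-alpha raises fat oxidation in fasting. Of 23 genes of sterol synthesis and LDL uptake 14 were lower and 1 higher after APAP (median -0.87), while in vehicle against untreated 15 were higher and 1 lower (median 0.84). Against the untreated arrays 2 of the 23 were called higher in the APAP arrays and 0 lower. Sqle, squalene epoxidase, read 9.55, 9.21, 10.51, 10.16 and 9.04 after APAP, 11.08, 10.66, 10.87, 11.33 and 11.51 after vehicle and 8.15, 8.05, 8.55, 8.25 and 8.29 at 0 h. Its APAP arrays thus lay between the other groups, with APAP minus vehicle -1.40 (SE 0.27, adjusted p = 0.00301) and vehicle minus untreated 2.83 (SE 0.15, adjusted p = 6.64e-07). Mvd read 6.70, 6.98, 7.07, 6.95 and 6.76 after APAP, 8.45, 8.36, 8.21, 8.65 and 9.06 after vehicle and 6.53 to 6.91 at 0 h, and differed by -1.66 (SE 0.14, adjusted p = 2.18e-05). Fdft1 (-1.61, SE 0.17, adjusted p = 6.89e-05), Msmo1 (-1.47, SE 0.30, adjusted p = 0.00375) and Hmgcs1 (-1.24, SE 0.22, adjusted p = 0.00144) were lower. Of 26 genes of fatty acid synthesis and glycolysis 8 were lower and 1 higher, the latter not called without APAP replicate 5. Mid1ip1, a partner of acetyl-CoA carboxylase, read 9.33, 9.54, 9.39, 9.31 and 9.15 against 11.17, 11.42, 10.92, 11.40 and 11.56, a difference of -1.95 (SE 0.11, adjusted p = 2.32e-06). Fasn (-1.08, SE 0.088, adjusted p = 1.53e-05), Srebf1 (-1.15, SE 0.19, adjusted p = 0.000997) and Elovl6 (-1.19, SE 0.17, adjusted p = 0.000459) were lower.

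In the other direction, 8 of 31 PPAR-alpha and fasting genes were higher and 0 lower (1 lower without vehicle replicate 3), while 12 were lower and 0 higher in vehicle against untreated. Pdk4, which blocks glucose oxidation, read 9.96, 9.45, 9.16, 11.37 and 12.72 after APAP, 6.23, 6.52, 7.20, 6.64 and 6.55 after vehicle and 9.24, 8.96, 8.69, 9.99 and 9.09 at 0 h. The APAP group spanned more than 3 units, with replicates 4 and 5 highest, and did not overlap the vehicle group, with a difference of 3.91 (SE 0.58, adjusted p = 0.000578). Fgf21, also in the ATF4 list, read 10.68, 9.35, 9.90, 10.80 and 10.16 after APAP, 7.18, 7.28, 7.65, 7.47 and 7.67 after vehicle and 8.61 to 10.92 at 0 h. Cidec, a lipid droplet protein (3.11, SE 0.33, adjusted p = 7.8e-05), Acot2 (1.77, SE 0.16, adjusted p = 2.7e-05), Angptl4 (1.31, SE 0.25, adjusted p = 0.00264) and Plin2 (0.77, SE 0.049, adjusted p = 3.57e-06) were higher, while Cyp4a10 (-0.0089) and Cyp4a14 (0.012), classic PPAR-alpha targets, gave adjusted p of 0.894 and 0.852 with signals near the top of the scale. Igfbp1 read 13.84, 12.83, 13.09, 14.30 and 14.26 after APAP and 9.32, 8.19, 13.34, 10.12 and 10.83 after vehicle, with vehicle replicate 3 inside the APAP range and a difference of 3.30 (SE 0.78, adjusted p = 0.00874), which was 4.05 without that array. Pck1, of glucose production, gave 0.38 (SE 0.21, adjusted p = 0.209), and Irs2 (1.11, SE 0.14, adjusted p = 0.000199) was higher. Across the lists of sterol synthesis, fatty acid synthesis, fasting genes and endoplasmic reticulum folding, the APAP arrays lay on the untreated side of the vehicle arrays. Food intake after dosing is not in the labels, and its part in these values was not tested.

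**Figure D4:**
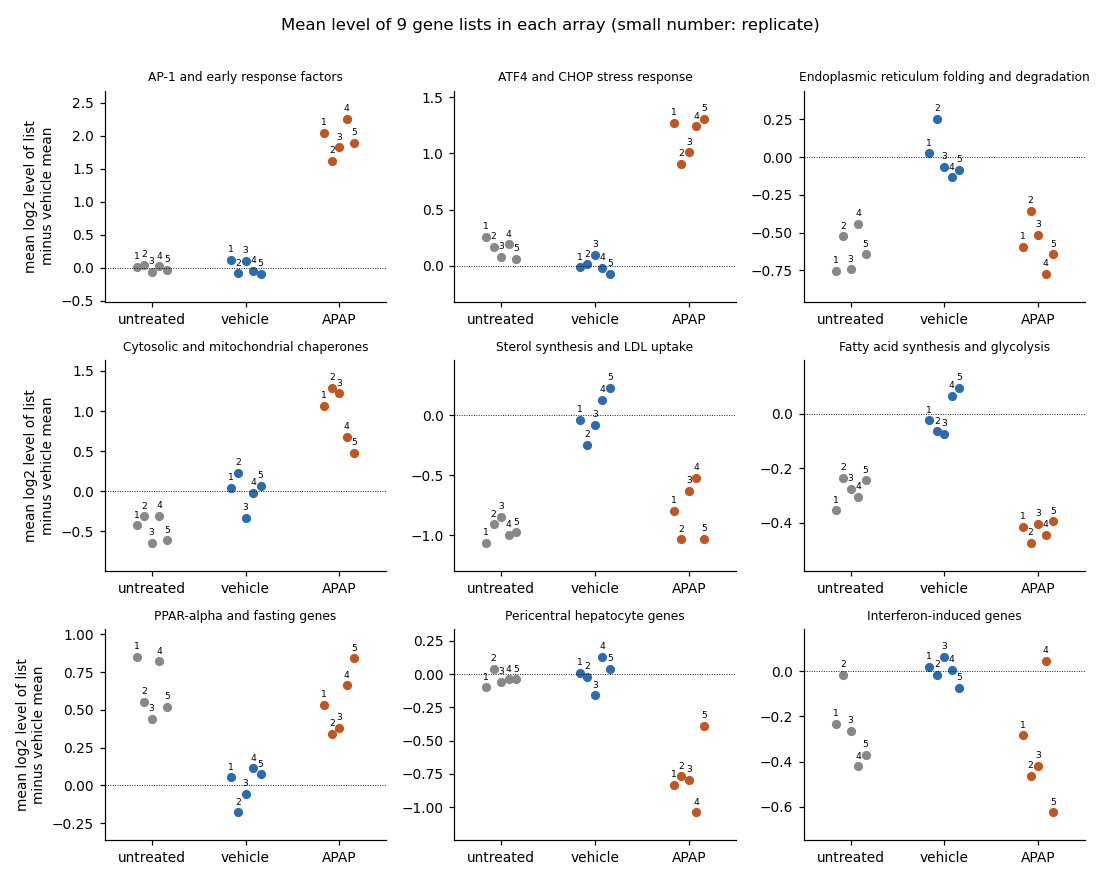
Each panel plots the mean log2 level of 1 list in the 15 arrays (numbers are replicates), minus the mean of the vehicle arrays (dotted line at 0). The AP-1 and ATF4 lists were high only after APAP, the sterol, fasting and endoplasmic reticulum lists placed the APAP arrays near the untreated ones, and in the pericentral list the untreated arrays were near the vehicle ones.

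Some genes of the daily clock also differed. Nfil3, a repressor that opposes Dbp, read 11.19, 10.95, 10.996, 10.98 and 10.68 after APAP and 8.25, 8.39, 8.89, 8.10 and 8.45 after vehicle, a difference of 2.55 (SE 0.14, adjusted p = 1.01e-06), and Dbp was lower, at 9.42, 9.56, 9.95, 8.29 and 9.51 against 11.03, 10.70, 10.32, 11.06 and 11.40 (-1.55, SE 0.29, adjusted p = 0.00203). In the vehicle arrays both had moved from 0 h, by -1.58 and 2.33. Of 21 clock and output genes 4 were higher and 5 lower, with Arntl (BMAL1) higher (1.35, SE 0.19, adjusted p = 0.000406) and Noct (-0.94, SE 0.18, adjusted p = 0.00233) and Per2 (-0.92, SE 0.24, adjusted p = 0.0134) lower. Of 26 growth hormone and male-pattern genes 5 were lower and 1 higher, with a median of -0.22. Hsd3b5, a male-pattern steroid enzyme of mouse liver, had the largest decrease of the called genes in this fit. It read 8.14, 8.40, 8.61, 6.91 and 7.39 after APAP, 12.23, 12.43, 10.33, 11.38 and 11.62 after vehicle and 8.49, 9.48, 9.39, 7.59 and 8.88 at 0 h, so that the APAP and vehicle groups did not overlap and differed by -3.71 (SE 0.42, adjusted p = 0.000107), with a vehicle minus untreated difference of 2.83 (SE 0.41, adjusted p = 0.00044). Its relatives Hsd3b3 (-2.15) and Hsd3b2 (-1.91) were lower too and share sequence with it. Serum carrier genes were among the other large decreases, Serpina7, the thyroxine carrier (-2.82, SE 0.31, adjusted p = 8.36e-05), and Serpina6, the corticosteroid carrier (-2.50, SE 0.23, adjusted p = 3.44e-05). Igfals (-1.69, SE 0.17, adjusted p = 4.59e-05), Keg1 (-2.23, SE 0.41, adjusted p = 0.00203) and the growth hormone receptor Ghr (-0.68, SE 0.11, adjusted p = 0.000756) were lower. The increase on that list was of Elovl3, a fatty acid elongase, at 11.36, 11.06, 10.67, 9.44 and 10.76 against 10.13, 10.02, 8.85, 9.58 and 9.22 (1.10, SE 0.35, adjusted p = 0.0366), with overlapping groups. It was not called without APAP replicate 1, 2, 3 or 5 or vehicle replicate 3, 4 or 5 (0.92 to 1.10, adjusted p = 0.0629 to 0.0835). The uncalled members of the list included Mup3 (0.0057), Cyp2d9 (0.032), Igfbp2 (0.097) and C8a (-0.22). Car3, a carbonic anhydrase, read 11.72, 10.32, 11.39, 10.32 and 9.77 against 13.16, 13.20, 13.27, 13.39 and 13.28 and differed by -2.56 (SE 0.31, adjusted p = 0.00018). Among the 27 proteasome subunits and the 32 respiratory chain subunits limma called 0. Of these 10 and 20 had an unadjusted p under 0.05, against 6832 of all 18180 genes. The respiratory chain members all lay on the lower side, from -0.31 to -0.00035 with a median of -0.13. Of these 32, 16 had an adjusted limma p under 0.05 with a change under 1.5-fold. In 15 of the 32 the APAP arrays lay wholly below the vehicle arrays, against 13.6% of all genes, and in 0 wholly above. The proteasome median was -0.033, with 2 wholly below and 1 wholly above.

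Among the largest changes outside the lists were Chka, choline kinase, at 12.79, 12.39, 12.30, 12.98 and 12.64 against 8.500, 8.95, 9.27, 8.76 and 8.40 (3.84, SE 0.17, adjusted p = 3.65e-07), and Ifrd1, a stress-induced nuclear cofactor, at 13.28, 12.84, 13.01, 13.34 and 13.35 against 9.55, 9.52, 9.27, 9.55 and 9.56 (3.68, SE 0.10, adjusted p = 5.89e-09). In both, the groups were tight and more than 3 units apart. Nrep (-2.93, SE 0.15, adjusted p = 9.38e-07) and Fam47e (-2.33, SE 0.26, adjusted p = 0.000107) were lower, both with groups that did not overlap, and both had been higher in vehicle than in untreated arrays (2.16 and 2.46). Sucnr1, the succinate receptor, read 8.75, 8.30, 8.49, 7.72 and 8.74 against 10.55, 10.54, 10.13, 10.42 and 10.50 (-2.03, SE 0.18, adjusted p = 2.44e-05), and Clec2h (-2.21), Hes6 (-1.92) and Akr1c20 (-1.94) were lower without overlap as well. Esr1, the estrogen receptor, is on the list of hepatocyte transcription factors and nuclear receptors and had a smaller change. It read 8.41, 8.64, 8.60, 8.30 and 8.42 against 9.79, 9.61, 9.71, 9.57 and 9.34, a difference of -1.13 (SE 0.09, adjusted p = 1.36e-05).

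The effect at 6 h was then set against the effects at 3 h and 9 h, each from its own 5 APAP and 5 vehicle mice. The 3 h comparison called 732 genes (4.03%), with 306 increases (1.68%) and 426 decreases (2.34%), and the 9 h comparison 826 (4.54%), with 453 increases (2.49%) and 373 decreases (2.05%). Of the 967 calls at 6 h 494 were also calls in the same direction at 3 h, 51.1% of those at 6 h and 67.5% of those at 3 h, and 530 at 9 h, 54.8% and 64.2%. In 0 genes did calls oppose. The test of the difference between times, in 1 fit of 40 arrays, called 45 genes between 6 h and 3 h (0.248%), with the effect at 6 h higher in 37 (0.204%) and lower in 8 (0.0440%), a total of 70 without APAP replicate 5. Between 6 h and 9 h it called 126 (0.693%), higher at 6 h in 18 (0.0990%) and lower in 108 (0.594%), a total of 214 without APAP replicate 2 and 82 without APAP replicate 5. Of the 230 genes called at 6 h alone, 0 had an effect that differed from both neighbours by that test.

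Among the 8 genes whose effect was lower at 6 h than at 3 h were early nuclear factors. Nr4a1, an orphan nuclear receptor induced within minutes of many signals, had effects of 3.64, 1.56 and 0.49 at the successive times, and the 6 h minus 3 h difference was -2.07 (SE 0.34, adjusted p = 0.00166). Egr2 went from 2.87 to 0.96 (difference -1.91, SE 0.33, adjusted p = 0.00269). Esr1 showed -0.089 at 3 h and -1.13 at 6 h, a difference of -1.04 (SE 0.20, adjusted p = 0.00607), and Foxo3, a factor of stress and fasting, 1.08 and 0.12 (-0.96, SE 0.21, adjusted p = 0.0178). The effects that were larger at 6 h than at 3 h included the chaperones Hspa1b (1.09 at 3 h, difference 2.56, SE 0.49, adjusted p = 0.00546) and Bag3 (0.62, difference 1.77, SE 0.36, adjusted p = 0.0113). Of the mitochondrial thioesterase Acot2 the effect was -0.16 at 3 h and 1.77 at 6 h, a difference of 1.92 (SE 0.26, adjusted p = 0.000192). Id3 (1.65, SE 0.35, adjusted p = 0.0142) and Smad7 (1.32, SE 0.30, adjusted p = 0.0248) differed between these times as well, Smad7 no longer without APAP replicate 1 or vehicle replicate 1 (adjusted p up to 0.0574).

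Between 6 h and 9 h, Btg2 (3.24 and 1.44, difference 1.80, SE 0.47, adjusted p = 0.0251), Plk3 (1.61, SE 0.28, adjusted p = 0.00108), Chka (1.42, SE 0.27, adjusted p = 0.00231) and Ier2 (1.26, SE 0.29, adjusted p = 0.0115), an early response gene, had the larger effect at 6 h, Btg2 no longer past the threshold without APAP replicate 4, APAP replicate 5 or vehicle replicate 2 (adjusted p up to 0.0634). Nr1d1, the clock repressor REV-ERB alpha, read 10.92, 9.40, 10.30, 11.09 and 11.03 at 6 h after APAP against 9.01, 8.92, 9.50, 9.08 and 9.42 after vehicle, and its effect was 0.25, 1.36 and 0.092 at 3, 6 and 9 h, with a 6 h minus 9 h difference of 1.27 (SE 0.31, adjusted p = 0.0178). Txnip, which binds thioredoxin, followed a similar course (0.33, 1.02 and 0.18, difference 0.83, SE 0.18, adjusted p = 0.00706). For neither gene was the 6 h minus 3 h difference called. Several endoplasmic reticulum genes were lower after APAP at 6 h and not at 9 h. Creld2 had effects of -2.06, -1.80 and 0.19 (6 h minus 9 h -1.99, SE 0.38, adjusted p = 0.00257) and Sdf2l1 of -2.29, -1.90 and -0.12 (-1.78, SE 0.36, adjusted p = 0.00372), and in that list 13 of 27 were lower at 3 h, 15 at 6 h and 1 at 9 h, with 7 called as lower at 6 h than at 9 h. Among the other genes whose effect was lower at 6 h than at 9 h were a macrophage gene, a collagenase and a cyclin. Chil3, a macrophage chitinase-like protein, read 6.47, 8.504, 9.32, 7.16 and 6.01 at 6 h after APAP and 5.93 to 7.22 after vehicle, with an effect of 1.12 at 6 h (adjusted p = 0.175) and 4.17 at 9 h, and a difference of -3.05 (SE 0.68, adjusted p = 0.00843). Without APAP replicate 5 and vehicle replicate 3 its 6 h effect was called, at 1.70 (adjusted p = 0.0422), and the difference between times was not (adjusted p = 0.0533). Mmp13, a matrix collagenase, went from 0.30 to 2.32 (-2.03, SE 0.40, adjusted p = 0.00289) and Ccnd1 from -0.036 to 1.58 (-1.62, SE 0.35, adjusted p = 0.00725).

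**Figure D5:**
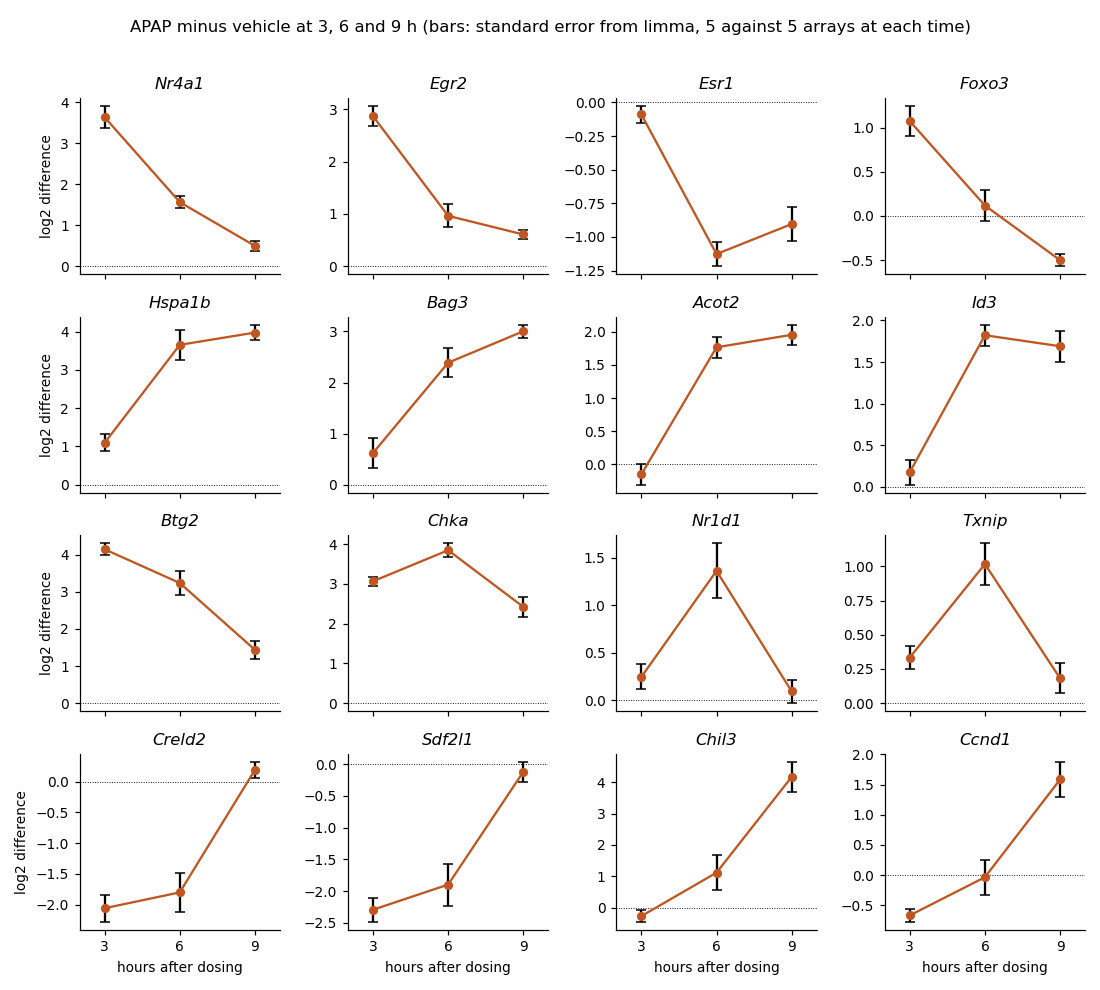
Each panel plots the APAP minus vehicle log2 difference of 1 gene at 3, 6 and 9 h (bars are SE, 5 against 5 arrays at each time). Nr4a1 and Egr2 start high and decline, Nr1d1 and Txnip are highest in the middle, and Chil3 and Ccnd1 climb to the last time, where Creld2 and Sdf2l1 are near 0.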

How the data were processed

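Liver RNA of 45 male mice in 9 groups of 5 was hybridised to Affymetrix Mouse Genome expression arrays, 1 mouse per array. The values are log2 RMA signals as deposited by the authors, who background-corrected, quantile-normalised and summarised the probes with affy 1.64.0 in R 3.6.1 and BrainArray probe sets (version 24, 1 value per Entrez gene), and used limma 3.42.2 for their own tests. Such values carry no read depth, quantile normalisation hides a shift of all genes together, and RMA compresses the lowest and highest signals. A second table with the same genes was not used, because its 45 columns carry headings that no label ties to a mouse.

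Groups and replicate numbers were taken from the titles. The labels and files give no scan date or other batch, so a batch effect could not be examined. Of the 18180 genes 18172 were named through RefSeq and 8 kept their Entrez number. Here limma 3.58.1 in R 4.3.3 (statmod 1.5.0 for robust fits) was fitted to the 5 APAP and 5 vehicle arrays at 6 h, two-sided, with Benjamini-Hochberg adjustment over all genes. The thresholds, from the study's methods, were adjusted p under 0.05 and 1.5-fold. Differences between times were contrasts in 1 model of the 40 dosed arrays in 8 groups, and vehicle at 6 h was set against untreated mice on its own 10 arrays. The fits were tested on simulated data. Replicate numbers were not used to pair mice, for the reason given in the closing section.

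The 51 gene lists held 1341 entries, of which 80 had no value here. Lists and tests were drawn up with earlier results of these data known. The genes named were drawn from a pool of 462, made of the 20 largest increases and the 20 largest decreases among called genes whose groups did not overlap, up to 8 called and 4 uncalled members of each list, the 10 largest called differences in each direction between 6 h and 3 h or 9 h, and the 10 genes with the largest SD in each group. The text gives 204 genes of it, and the others are not reported here. The exocrine pancreas genes, the 11 genes shown for vehicle replicate 3 and a few promoter matches were chosen after their values were seen. As alternatives, the fits were repeated without 1 array at a time, with a replicate block, with all 45 arrays in 1 model, with eBayes with trend and robust, array weights, leaving out the dimmest 25% of genes, subtracting array medians, adjusted p under 0.01 and limma's treat. The groups at 24 h were not used here beyond the models that include them. Comparisons were two-sided throughout, and each vehicle group is shared by the comparisons that use it.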

Additional observations from a re-analysis of the deposited data

Results flagged for a closer look

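In each of the 204 genes named above, the most extreme array of each group of 5 at 6 h was compared with the rest of its group by Dixon's ratio, and 37 of 408 groups held an array that stood apart. Chance alone marks about 1 group in 20 when genes are not chosen by their values. Some of the named genes were chosen for a large SD or a large change in these same arrays, and all share the same mice. The count therefore cannot show whether more arrays stood apart than by chance. APAP replicate 5 accounted for 9 of the 37 and vehicle replicate 3 for 14.

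In APAP replicate 5, Clps read 12.73 against 4.66 to 4.78 in the other APAP arrays, and Glul (12.81), Slc1a2 (9.62), Slc13a3 (7.29) and Gadd45g (11.85) also lay above their group. Sars (10.27), Pgd (10.76), Prdx1 (14.31) and Plaur (7.99) lay below it. Glul, Slc1a2 and Slc13a3, all pericentral genes called lower, were thus nearest to the vehicle level in this mouse.

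In vehicle replicate 3, Lyve1 read 9.95 against 8.47 to 8.60 in the other vehicle arrays and Mt2 11.56 against 8.62 to 9.45. Cxcl1 (9.97), Lcn2 (10.13), Fgb (14.4), Lrat (8.07), Bcl2l11 (7.79), Osmr (7.56) and Irs2 (8.26) lay above the group, and Dnajb1 (9.58), Ifrd1 (9.27), Mup3 (14.07), Hes6 (9.99) and Akr1c20 (11.77) below it.

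The other 14 were spread over 7 arrays. APAP replicate 4 was apart in Cyp2e1 (14.35) and Klf6 (11.14), APAP replicate 2 in Pdia4 (9.81) and APAP replicate 1 in Arntl (9.93) and Igfbp2 (12.84). Vehicle replicate 2 was apart in Psat1 (5.83), Sars (10.08) and Klkb1 (11.99), vehicle replicate 5 in Gstm1 (13.91), Plk3 (8.86), Rel (7.16) and Cyp7a1 (11.61), vehicle replicate 4 in Hnf4a (11.92) and vehicle replicate 1 in Ier2 (10.84).

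The effect of APAP, as the log2 difference from vehicle, differed between 6 h and 3 h by the limma test of that difference in 10 of the named genes. It was larger at 6 h for Hspa1b (by 2.56), Acot2 (1.92), Bag3 (1.77), Id3 (1.65), Smad7 (1.32) and Ifrd1 (1.27). The call of Ifrd1 was lost in 8 of the 10 fits without 1 array of 6 h (adjusted p up to 0.0884). The 6 h minus 3 h difference was -2.07 for Nr4a1, -1.91 for Egr2, -1.04 for Esr1 and -0.96 for Foxo3. On the 20 arrays of both times alone, Bag3 and Foxo3 did not pass (adjusted p = 0.0719 and 0.104).

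Between 6 h and 9 h the effect differed in 20 named genes. The 6 h minus 9 h difference was positive for Btg2 (1.80), Plk3 (1.61), Chka (1.42), Nr1d1 (1.27), Ier2 (1.26), Txnip (0.83) and Map3k5 (0.70). It was negative for the endoplasmic reticulum genes Creld2 (-1.99), Sdf2l1 (-1.78), Manf (-1.21), Ero1b (-0.94), Dnajb11 (-0.69) and Pdia6 (-0.64), for Chil3 (-3.05), Mmp13 (-2.03) and Ccnd1 (-1.62), and for Slc39a10 (-1.16), Igtp (-0.80), Papss1 (-0.72) and Cxcl12 (-0.69). The calls of Pdia6, Slc39a10, Igtp and Map3k5 were lost without 1 array in 2, 2, 4 and 3 of 10 fits. On the 20 arrays of both times alone, Slc39a10, Ccnd1 and Map3k5 did not pass (adjusted p = 0.0589, 0.0543 and 0.0797).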

How the results depend on the processing

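The 967 calls at 6 h (416 higher, 551 lower) ranged from 856 without APAP replicate 4 to 1072 without APAP replicate 2 when each array was left out (360 to 478 higher, 496 to 594 lower). With all 45 arrays in 1 model there were 1006 calls, with trend and robust eBayes 955, with array weights 947, without the dimmest 25% of genes 942, with array medians subtracted 973 and at an adjusted p under 0.01 874. Among the named genes, the calls of Areg, Ereg, Egr2 and Mmp12 were lost without the dimmest 25% of genes. No gene called at 6 h changed sign in any of these settings. The treat test, which asks for a change above 1.5-fold rather than for a change, called 160 genes (91 higher, 69 lower), all among the 967. Leaving out both APAP replicate 5 and vehicle replicate 3, a setting chosen after seeing the data, gave 1006, of which 877 were shared.

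The calls between 6 h and 3 h (45) ranged from 35 without vehicle replicate 1 to 70 without APAP replicate 5, and were 52 on the 20 arrays of both times, 44 with trend and robust eBayes and 49 without both arrays. Those between 6 h and 9 h (126) ranged from 82 without APAP replicate 5 to 214 without APAP replicate 2, and were 112, 123 and 72 in the same settings. The cause was not tested. Only the 6 h arrays were left out in these fits. The calls of vehicle against untreated (526) ranged from 503 to 553, with 516 in the model of all arrays.

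The same replicate numbers occur in each group, and the deviations of same-numbered APAP and vehicle arrays from their group means correlated at 0.0158, 0.314, -0.169, 0.0281 and 0.015 over all genes for numbers 1 to 5, with replicate 2 alone correlating best with its own number. With the replicate block there were 961 calls at 6 h, 47 and 128 between times and 523 of vehicle against untreated, and Chil3 was called at 6 h (1.12, adjusted p = 0.0447). Near the top of the signal scale, where Cyp2e1, Gstm1 and Hp lie, RMA values leave little room to show a change. The part of this in their small differences was not tested.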
